A study of Mus musculus with 9 samples.

Results

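The genes described here belong to the folding machinery of the endoplasmic reticulum and to the unfolded protein response that adjusts it. They were 51 gene symbols matched in a mouse count table of 25611 rows, taking the first row per symbol, and 50 of them had enough counts to be tested (Atf3 did not). The matching went by symbol alone, and the symbols were chosen with earlier results of these data known. By role, 12 were chaperones and their helpers, 8 served disulfide oxidation, 9 protein entry and signal peptide removal, 11 the degradation of misfolded proteins, 7 were stress sensors or transcription factors, and 4 were stress outputs downstream of Atf4.

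Secretory proteins enter the endoplasmic reticulum as unfolded chains, lose their signal peptide, and fold with the help of chaperones and of oxidoreductases that build disulfide bonds. Chains that fail to fold are pulled back into the cytosol and degraded. The sensors Ern1 (IRE1), Eif2ak3 (PERK) and Atf6 respond to misfolded protein, and through Xbp1, Atf4 and cleaved Atf6 they raise folding capacity or slow translation. Beta cells make and fold proinsulin, a disulfide-bonded precursor, in large amounts, and this machinery is abundant in islets.

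RNA was sequenced from islets of 4-week-old mice labelled KO (knockout), which carried Pdx1-Cre and Glis3fl/fl (3 mice), and of 4-week-old control mice labelled WT, which carried Glis3fl/fl without the driver (4 mice). Pdx1-Cre acts in the pancreatic lineage marked by Pdx1, so exocrine cells descend from it too. No mice carried the driver alone, so effects of the driver and of the deletion cannot be told apart. Binding of Glis3, a zinc finger transcription factor of the pancreas, was mapped with an antibody against GFP in 8-week-old Glis3-eGFP mice, as 1 peak list without a replicate.

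Total counts per library were 12099365 to 22578480 in KO and 18297697 to 48054551 in WT. Levels are given as CPM, counts scaled to a library total of 1e+06 after TMM scaling, and are compared between libraries within a gene, never between genes. The islet hormone and endocrine markers were detected in every library. Glis3 itself was at 52.0, 52.7 and 57.7 CPM in KO1 to KO3 and at 39.5, 46.8, 31.2 and 33.5 CPM in WT1 to WT4 (edgeR adjusted p = 0.0257, and 0.0505 with the replicate number as a block; 0.00948 to 0.117 over 17 alternatives, and over 0.05 without KO1, KO3, WT3 or WT4). Such a whole-gene count cannot check the removal of some exons, so KO is used throughout as a label. Of the 14529 tested genes, 1268 were higher and 763 lower in KO (edgeR quasi-likelihood test, Benjamini-Hochberg adjusted p under 0.05).

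Many of these promoters carry short sequence elements to which factors of the response bind, and those of 8 genes that the results below return to are printed first. The endoplasmic reticulum stress element, bound by Atf6 with NF-Y, was searched as CCAAT, any 9 bases, then CCACG. The second stress element was searched as ATTGG, any base, then CCACG, the Xbp1 element as TGACGTGG, the amino acid response element bound by Atf4 as TGATGCAA, and the Glis3 core as TGGGGGGT, each on both strands. The sequences are the 250 bases before the gene start from RefSeq (GRCm38.p6), 5′ to 3′ on the gene's own strand, and capitals mark the letters of a match with its free bases left in lower case. Hspa5 lies at chr2:34771840-34772089 (plus strand), Hsp90b1 at chr10:86705445-86705694 (minus), Pdia6 at chr12:17266339-17266588 (plus) and Dnajc3 at chr14:118937682-118937931 (plus). Derl3 lies at chr10:75893148-75893397 (plus), Ero1lb at chr13:12565633-12565882 (plus), Herpud1 at chr8:94386179-94386428 (plus) and Chac1 at chr2:119350992-119351241 (plus). The set starts with 4 genes that were higher in KO, goes on with Derl3, which stood apart without passing the test, and with Ero1lb, which was lower, and ends with Herpud1 and Chac1, which carry the Atf4 type of element.
Hspa5: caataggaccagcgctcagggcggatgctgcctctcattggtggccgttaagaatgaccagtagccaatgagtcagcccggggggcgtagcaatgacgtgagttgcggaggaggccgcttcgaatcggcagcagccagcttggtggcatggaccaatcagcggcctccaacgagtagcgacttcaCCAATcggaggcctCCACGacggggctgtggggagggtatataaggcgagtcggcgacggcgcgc
Hsp90b1: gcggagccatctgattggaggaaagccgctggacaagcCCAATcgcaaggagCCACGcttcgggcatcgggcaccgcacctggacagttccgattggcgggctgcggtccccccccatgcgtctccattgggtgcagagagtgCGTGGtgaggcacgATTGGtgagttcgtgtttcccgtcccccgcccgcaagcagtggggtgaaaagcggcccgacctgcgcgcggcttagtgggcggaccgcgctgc
Pdia6: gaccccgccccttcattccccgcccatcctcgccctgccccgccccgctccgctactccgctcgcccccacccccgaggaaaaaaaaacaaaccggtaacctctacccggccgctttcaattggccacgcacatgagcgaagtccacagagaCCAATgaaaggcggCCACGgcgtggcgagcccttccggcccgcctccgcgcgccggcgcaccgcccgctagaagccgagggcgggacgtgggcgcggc
Dnajc3: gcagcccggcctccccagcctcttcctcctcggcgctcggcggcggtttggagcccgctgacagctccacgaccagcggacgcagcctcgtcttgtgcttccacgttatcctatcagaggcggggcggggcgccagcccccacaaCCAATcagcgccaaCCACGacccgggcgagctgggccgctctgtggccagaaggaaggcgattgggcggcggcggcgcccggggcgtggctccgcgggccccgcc
Derl3: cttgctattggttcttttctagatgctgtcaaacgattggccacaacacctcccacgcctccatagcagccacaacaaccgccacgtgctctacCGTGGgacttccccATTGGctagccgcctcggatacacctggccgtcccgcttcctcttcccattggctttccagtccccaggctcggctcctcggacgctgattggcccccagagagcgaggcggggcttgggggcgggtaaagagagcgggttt
Ero1lb: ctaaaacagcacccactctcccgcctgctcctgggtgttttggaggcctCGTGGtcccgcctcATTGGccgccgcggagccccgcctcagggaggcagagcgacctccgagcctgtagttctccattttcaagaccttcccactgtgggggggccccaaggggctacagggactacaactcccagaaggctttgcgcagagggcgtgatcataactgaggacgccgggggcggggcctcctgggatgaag
Herpud1: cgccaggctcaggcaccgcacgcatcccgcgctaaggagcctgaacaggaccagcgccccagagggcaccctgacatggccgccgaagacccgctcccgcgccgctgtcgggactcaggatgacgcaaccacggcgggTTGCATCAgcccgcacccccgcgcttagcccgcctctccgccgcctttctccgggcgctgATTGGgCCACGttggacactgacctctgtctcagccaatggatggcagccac
Chac1: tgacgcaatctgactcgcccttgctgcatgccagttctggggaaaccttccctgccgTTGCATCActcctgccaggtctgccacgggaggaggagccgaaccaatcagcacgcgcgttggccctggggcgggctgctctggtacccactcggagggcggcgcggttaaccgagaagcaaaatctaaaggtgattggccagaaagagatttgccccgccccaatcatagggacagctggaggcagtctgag

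Of the 51 genes, 44 had an entry in the promoter table, with 45 promoters of 300 bases (250 before and 50 after the start). The stress element was present in 10 of them (22.2%), against 0.119% of all 32851 promoters of that length. This element was first described in chaperone promoters of this kind, so its presence is background. The 10 genes were Calr, Canx, Creld2, Derl3, Dnajc3, Ero1lb, Hsp90b1, Hspa5, Pdia6 and Syvn1. In Hspa5 the match began 65 bases before the start, and Hsp90b1 had a match on each strand, 212 and 107 bases before the start. Of the 10 genes, 5 were higher, 1 was lower and 4 did not pass the test, and 7 lay above every WT library in every KO library. Among all tested genes 8.73% were higher (edgeR adjusted p under 0.05) and in 14.0% every KO library lay above every WT library, and among the 50 tested genes of the set these shares were 36% and 44.0%. The second stress element was in Dnajb11 and Herpud1 (4.44% of promoters against 0.0365% of all). The Xbp1 element was in Vcp alone among these promoters (2.22% against 0.676%). The amino acid response element was in Atf3, Chac1 and Herpud1 (6.67% against 0.895%). The Glis3 core letters were in none of the 45 promoters (0.00% against 1.53%), which says only that these letters were not in this window.

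Many folding genes of the lumen stood higher in KO islets. Among the 6 sensors and stress factors and the 4 Atf4 outputs that were tested none was called higher. With 8.73% of all tested genes higher, lists this short could hold none, so this count sets up no contrast with the folding genes. Atf3, below the count filter, and Ern1 were called higher under some alternatives. Of the 50 genes tested, 18 were higher in KO, 2 were lower (Ero1lb and Atf4) and 30 did not pass the test. Among all tested genes 8.73% were higher and 5.25% lower. The 18 increases ran from 1.39-fold (Dnajc10) to 2.35-fold (Edem2). The median log2 fold change, KO over WT, was 0.36 over the 50 genes and 0.0065 over all tested genes. In 22 of the 50 genes (44.0%) every KO library lay above every WT library, against 14.0% of all tested genes, and in 3 (6.00%) every KO library lay below, against 12.6% (26.6% of all tested genes in either direction). These included all 20 genes that passed the test.

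**Figure D1:**
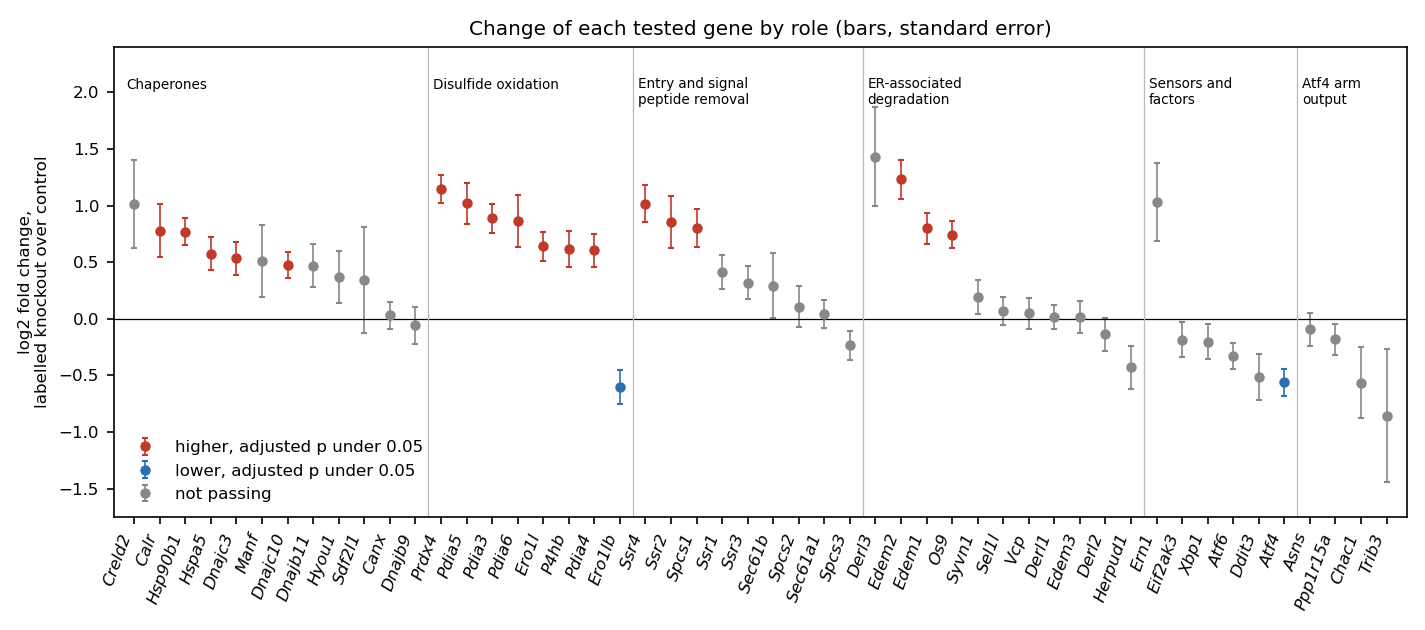
Log2 fold change of KO over WT on the vertical axis for the 50 tested genes, grouped by role, with bars of 1 SE (edgeR quasi-likelihood fit) and with red, blue and grey for higher, lower and not passing. In disulfide oxidation 7 of 8 genes lie above 0 and Ero1lb lies below, and all 4 outputs of the Atf4 arm lie below 0 without passing the test.

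Markers of other cell types and of the islet cells themselves also differed between the libraries. The 28 acinar markers summed to 3249, 17780 and 4723 CPM in KO1 to KO3 and to 1058, 5380, 1063 and 6665 CPM in WT1 to WT4, so the groups overlapped. At 24 of the 26 tested acinar markers the fold change was positive (median log2 1.29, and 0.13 without KO2), and none passed the edgeR test (unadjusted p under 0.05 at 2 higher and 1 lower; DESeq2 called 1 higher and limma-voom 0). Amy2a5 was at 0 in every library. With the mean log2 CPM of these markers as a covariate, 11 of the genes described here were higher and 1 was lower. Over all tested genes 6.56% were then higher and 3.25% lower, against 8.73% and 5.25% without the covariate. The median log2 fold change without and with it was 0.49 and 0.47 for chaperones and 0.75 and 0.74 for disulfide oxidation. It was 0.32 and 0.25 for entry, 0.07 and 0.05 for degradation, −0.27 in both for sensors and factors, and −0.37 and −0.29 for Atf4 outputs. Duct markers summed to 994, 822 and 978 CPM in KO1 to KO3 and to 280, 271, 289 and 327 CPM in WT1 to WT4, without overlap. Of the 7 tested duct markers 5 had a positive fold change and 1 (14.3%), Spp1, was called higher (log2 4.29), against 8.73% of all tested genes. Their median log2 fold change of 1.58 was 0.14 without KO1 and 0.21 with limma-voom. All 8 fibroblast and stellate markers had a positive fold change (median log2 0.51) and 1 (12.5%), Dcn, was called higher, but its groups overlapped. It was 0 of the 8 without KO1, KO2, WT2, WT3 or WT4 and 3 without KO3 or WT1. Of the 6 vessel, 5 immune and 5 Schwann markers tested, none passed the edgeR test (median log2 0.19, 0.30 and 0.32). DESeq2 and limma-voom each called 1 Schwann marker higher. Of the 11 islet endocrine markers 3 were called higher (27.3%) and 5 lower (45.5%, against 5.25% of all tested genes). How far cells of these kinds, or fewer beta cells, contribute to the values below was not tested, and in bulk islets fewer cells of a type and less RNA per cell cannot be told apart.

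The counts depended on some libraries. Without KO3, 11 genes were higher and 4 lower, and without KO2 or without WT3 1 was lower. Over all genes tested without KO3, 6.88% were higher and 5.54% lower. WT1 was the lowest WT library in 37 of the 51 genes and in 15 of the 18 that rose, and KO1 was the lowest KO library in 33. With the replicate number as a block, which leaves WT4 without a partner and so without weight, 26 genes were higher and 3 lower. Under the same block 20 of the 26 acinar markers were also higher. With library size alone as the scaling, the median over all genes was 0.17 and that of these genes stood 0.38 above it, with 23 higher and 1 lower. Over all tested genes 12.7% were higher and 2.23% lower under that scaling, and 9.53% and 5.53% under the block.

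**Figure D2:**
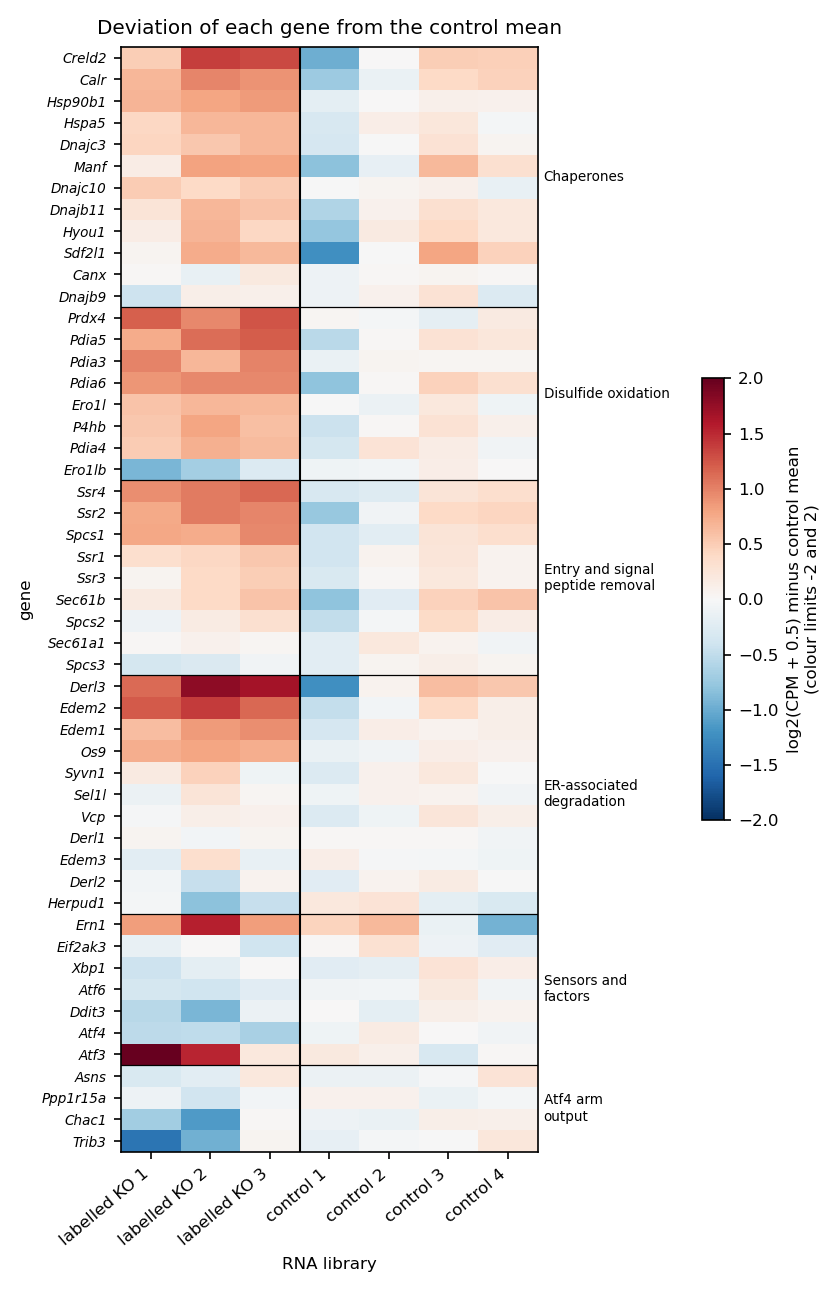
Deviation of each gene (rows, by role) in each library (columns, KO left of WT, which is named control), as log2(CPM + 0.5) minus the mean of the 4 WT libraries, red above and blue below. KO1 to KO3 are red through most chaperone and disulfide oxidation genes, WT1 is blue in many of the same rows, and Atf3 is dark red in KO1 and KO2 and pale in KO3.

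Of the 12 chaperones and helpers, 5 rose in KO islets (41.7%), none fell and 7 did not pass the test, with a median log2 fold change of 0.49. Among all tested genes 8.73% were higher and 5.25% lower, so a list this short could hold no fall. Hspa5 (BiP), the Hsp70 chaperone that also holds the sensors inactive, was at 1152, 1367 and 1365 CPM in KO1 to KO3 and at 687, 945, 1006 and 840 CPM in WT1 to WT4. The groups did not overlap, with WT1 the lowest library. Its log2 fold change was 0.57 (SE 0.14, edgeR adjusted p = 0.0160). Hsp90b1 (Grp94), the Hsp90 of the lumen, was at 1462, 1572 and 1636 CPM in KO against 793, 913, 978 and 968 CPM in WT, a log2 fold change of 0.77 (SE 0.12, edgeR adjusted p = 0.000711). Every KO library lay well above the highest WT library.

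Calr, the calcium-binding lectin chaperone calreticulin, was at 1348, 1670 and 1589 CPM in KO against 515, 777, 1118 and 1178 CPM in WT. WT3 and WT4 came near KO1 and WT1 was far below, and the log2 fold change was 0.78 with a wider SE of 0.23 (edgeR adjusted p = 0.0471). Calr lost its call without KO1 (edgeR adjusted p = 0.0740), KO2 (0.170), KO3 (0.120) or WT2 (0.117), and its adjusted p ran from 0.000616 to 0.170 over 17 alternatives. It also lost its call with limma-voom, with no filter on low counts and with the 10 most abundant genes left out. Canx, its membrane-bound relative calnexin, had a log2 fold change of 0.03 (SE 0.12, edgeR adjusted p = 0.909). Dnajc3 (p58IPK), a J-domain co-chaperone of Hspa5 and inhibitor of Eif2ak3, was at 318, 341 and 374 CPM in KO against 186, 233, 287 and 244 CPM in WT (log2 0.54, SE 0.15, edgeR adjusted p = 0.0253). Dnajc10 (ERdj5), a J-domain reductase that opens disulfides before degradation, was at 135, 125 and 136 CPM in KO against 93.8, 98.9, 102 and 85.5 CPM in WT (log2 0.47, SE 0.11, edgeR adjusted p = 0.0112). Neither gene overlapped between the groups. Without KO3 the edgeR adjusted p was 0.0765 for Hspa5, 0.112 for Dnajc3 and 0.0515 for Dnajc10, and 1 chaperone was still called. Dnajc3 also missed the threshold without WT1 (edgeR adjusted p = 0.0517) or WT2 (0.0631), and without WT2 3 chaperones were called. Over the 17 alternatives the adjusted p ran from 0.000731 to 0.0914 for Hspa5, from 0.00109 to 0.112 for Dnajc3 and from 0.000406 to 0.0515 for Dnajc10. With the acinar covariate the edgeR adjusted p was 0.0914 for Hspa5, 0.157 for Calr and 0.0822 for Dnajc3.

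The 7 chaperones that did not pass the test differed in how far they stood apart. Creld2, a stress-induced lumenal protein with a disulfide isomerase-like motif, was at 84.8, 157 and 150 CPM in KO against 30.1, 60.7, 84.3 and 84.1 CPM in WT (log2 1.02, SE 0.39, edgeR adjusted p = 0.145). KO1 was close to WT3 and WT4, and the groups did not overlap. With the replicate block Creld2 passed (edgeR adjusted p = 5.5e-05), as did Manf, a secreted stress-induced survival factor (0.00924), Dnajb11, the ERdj3 co-chaperone (0.0118), and Hyou1 (Grp170), the exchange factor of Hspa5 (0.0499). Over the alternatives the adjusted p of Creld2 ran up to 0.339, that of Manf to 0.603, that of Dnajb11 to 0.357 and that of Hyou1 to 0.706. Without WT1 Creld2 had an edgeR adjusted p of 0.0378. Creld2 and Dnajb11 also passed with library size alone. In the fit without the block Manf, Dnajb11 and Hyou1 had log2 fold changes of 0.51, 0.47 and 0.37, with overlapping groups. Sdf2l1, a partner of Dnajb11, stood at 0.34 (SE 0.47, edgeR adjusted p = 0.702), and Dnajb9 (ERdj4), a J-domain protein that restrains Ern1, at −0.06 (0.861).

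**Figure D3:**
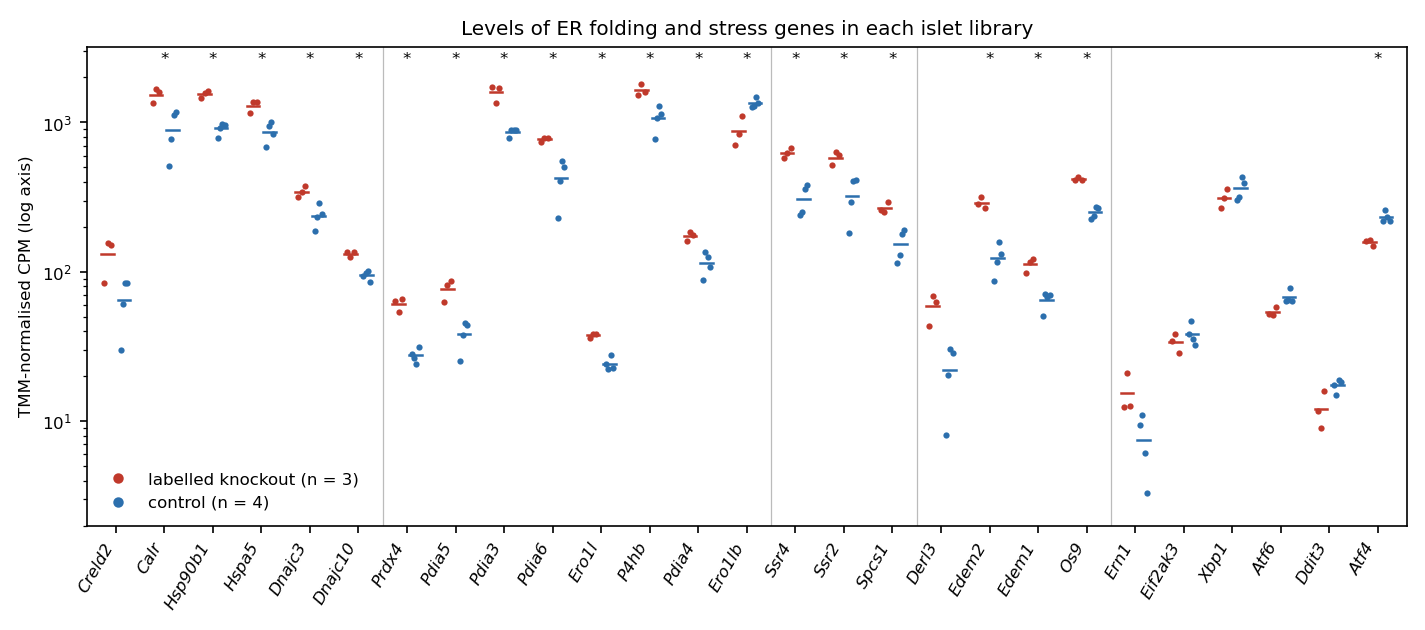
CPM on a log axis in each KO library (red, 3 points per gene, left) and each WT library (blue, control, 4 points, right), with a bar at each group mean and an asterisk at an edgeR adjusted p under 0.05. The KO points of Hsp90b1, Pdia3, Prdx4 and Edem2 lie above all WT points, those of Ero1lb and Atf4 lie below, and those of Xbp1 and Eif2ak3 are mixed with the WT points.

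All 8 genes of disulfide oxidation passed the test, 7 higher in KO (87.5%, against 8.73% of all tested genes) and 1 lower. Pdia3 (ERp57), the isomerase that works with calreticulin and calnexin on glycoproteins, was at 1721, 1360 and 1705 CPM in KO against 783, 894, 889 and 886 CPM in WT (log2 0.89, SE 0.13, edgeR adjusted p = 0.000317). P4hb (PDI), the principal isomerase, was at 1523, 1811 and 1591 CPM in KO against 779, 1074, 1290 and 1135 CPM in WT (log2 0.62, SE 0.16, edgeR adjusted p = 0.0178). Neither gene overlapped, and the KO libraries of P4hb were closer to WT3 than those of Pdia3 were. Pdia4 (ERp72), another isomerase, was at 160, 186 and 176 CPM in KO against 88.1, 136, 125 and 108 CPM in WT (log2 0.60, SE 0.15, edgeR adjusted p = 0.0134). Pdia5, a less studied isomerase, was at 62.9, 81.7 and 86.9 CPM in KO against 25.4, 38.0, 45.5 and 43.9 CPM in WT, a 2.03-fold difference (log2 1.02, SE 0.18, edgeR adjusted p = 0.00186). Pdia6, an isomerase that also limits signalling by Ern1, was at 742, 784 and 782 CPM in KO against 229, 408, 552 and 504 CPM in WT (log2 0.86, SE 0.23, edgeR adjusted p = 0.0261). The 3 KO libraries of Pdia6 lay close together, while its WT libraries spread from WT1 at the bottom to WT3 at the top.

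The enzymes that drive oxidation split in opposite directions. Prdx4, a peroxiredoxin that uses peroxide to oxidise the isomerases, was at 63.3, 53.9 and 66.1 CPM in KO against 28.2, 26.7, 24.2 and 31.2 CPM in WT (log2 1.15, SE 0.13, edgeR adjusted p = 3.6e-05). Ero1l, the widely expressed oxidase that recharges P4hb, was at 36.2, 38.5 and 38.3 CPM in KO against 24, 22.3, 27.9 and 22.7 CPM in WT (log2 0.64, SE 0.13, edgeR adjusted p = 0.00406). In both genes every KO library lay clear of the WT libraries. Ero1lb, the pancreas-enriched form of the oxidase and known for its part in proinsulin folding, was at 707, 834 and 1100 CPM in KO against 1264, 1282, 1472 and 1341 CPM in WT. The groups did not overlap, and KO3 was the KO library nearest to WT. It fell by 0.61 on the log2 scale (SE 0.15, edgeR adjusted p = 0.0159).

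Among these 8 genes, Pdia3, Pdia5, Prdx4 and Ero1l kept their call under all 17 alternatives. Without KO3 the edgeR adjusted p was 0.0570 for Pdia4, 0.0787 for Pdia6 and 0.0560 for P4hb, so that 4 of the 7 increases were called. Pdia6 also missed the threshold without KO1 (edgeR adjusted p = 0.0711), KO2 (0.108) or WT2 (0.0681), and P4hb without KO2 (0.0620). The fall of Ero1lb was not called without KO1 (edgeR adjusted p = 0.0885), KO2 (0.0504) or WT3 (0.0517). With the acinar covariate the edgeR adjusted p was 0.0742 for Pdia4, 0.0903 for Pdia6, 0.101 for P4hb and 0.0668 for Ero1lb. Over all alternatives the adjusted p ran from 0.00122 to 0.0742 for Pdia4, from 0.000683 to 0.108 for Pdia6, from 0.000295 to 0.101 for P4hb and from 0.000463 to 0.0885 for Ero1lb. The insulin genes were lower in KO, Ins2 by a log2 fold change of −1.59 (SE 0.23) and Ins1 by −1.30 (SE 0.28).

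Of the 9 genes for entry and signal peptide removal, 3 rose, none fell and 6 did not pass the test (median log2 0.32). The share that rose was 33.3%, against 8.73% of all tested genes, of which 5.25% were lower. Ssr4, the delta subunit of the translocon-associated protein complex that helps chains through the Sec61 channel, was at 577, 620 and 670 CPM in KO against 242, 251, 359 and 379 CPM in WT (log2 1.02, SE 0.17, edgeR adjusted p = 0.000918). Ssr2, the beta subunit, was at 516, 630 and 601 CPM in KO against 181, 291, 403 and 413 CPM in WT (log2 0.85, SE 0.23, edgeR adjusted p = 0.0278). In both subunits WT3 and WT4 were the upper WT libraries and still lay below KO1. Spcs1, a non-catalytic subunit of the signal peptidase complex, was at 259, 253 and 294 CPM in KO against 115, 130, 180 and 191 CPM in WT (log2 0.80, SE 0.17, edgeR adjusted p = 0.00584). Its span shares 274 bases with the oppositely oriented Glt8d1, and no source used here gives the strand setting of the counting. The alpha subunit Ssr1 had a log2 fold change of 0.41 with no overlap between groups (edgeR adjusted p = 0.0805), and it passed with the replicate block (0.0253). Ssr1 also passed with DESeq2 and with library size alone. Its adjusted p ran from 0.00667 to 0.243 over the alternatives. Ssr3, the gamma subunit, stood at 0.32 (edgeR adjusted p = 0.177). It passed with library size alone (edgeR adjusted p = 0.0215), over a range that reached 0.479. The channel subunits Sec61a1 and Sec61b stood at 0.04 and 0.29 (edgeR adjusted p = 0.869 and 0.567), and Sec61b passed with the block (0.0210; 0.0210 to 0.838 over the alternatives). The signal peptidase subunits Spcs2 and Spcs3 stood at 0.10 and −0.24 (edgeR adjusted p = 0.763 and 0.255). Ssr2 missed the threshold without KO1 (edgeR adjusted p = 0.0533), KO2 (0.128), KO3 (0.0855) or WT2 (0.0759) and with the acinar covariate (0.105), over a range of 0.000291 to 0.128. It also missed the threshold with no filter on low counts.

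Of the 11 genes for degradation, 3 rose, none fell and 8 did not pass the test, and their median log2 fold change was 0.07. The share that rose was 27.3%, against 8.73% of all tested genes, of which 5.25% were lower. The 3 that rose act on glycoproteins. Edem2, a mannosidase that starts the trimming that marks a misfolded glycoprotein, was at 283, 319 and 268 CPM in KO against 86.8, 116, 159 and 131 CPM in WT, a 2.35-fold difference (log2 1.23, SE 0.17, edgeR adjusted p = 0.000278). Edem1, a related mannosidase-like protein, was at 98.9, 117 and 123 CPM in KO against 51.0, 70.9, 67.5 and 70 CPM in WT (log2 0.80, SE 0.14, edgeR adjusted p = 0.00128). Os9, the lectin that reads the trimmed glycan, was at 414, 433 and 412 CPM in KO against 227, 237, 273 and 266 CPM in WT (log2 0.74, SE 0.12, edgeR adjusted p = 0.000764). None of the 3 overlapped between the groups, and all 3 kept their call under all 17 alternatives. Edem3, the third mannosidase of the family, had a log2 fold change of 0.01 (edgeR adjusted p = 0.968). The ubiquitin ligase Syvn1 (Hrd1) and its partner Sel1l stood at 0.19 and 0.07 (edgeR adjusted p = 0.441 and 0.767), and Vcp, the ATPase that extracts the chains, stood at 0.05 (0.858).

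Among the derlins, which help move chains out of the lumen, Derl3 stood apart from its relatives. Derl3 was at 43.7, 69.0 and 63.2 CPM in KO against 8.08, 20.5, 30.4 and 28.8 CPM in WT (log2 1.43, SE 0.44, edgeR adjusted p = 0.0812). The groups did not overlap, and WT1 was far below the other WT libraries. Without WT1 its edgeR adjusted p was 0.00122 and with the replicate block it was 0.000193, over a range that reached 0.219. Derl3 also passed with DESeq2 and with library size alone. Derl1 and Derl2 had log2 fold changes of 0.02 and −0.14 (edgeR adjusted p = 0.940 and 0.584). Herpud1, a membrane scaffold of the Syvn1 ligase, was at 129, 75.0 and 96.1 CPM in KO against 154, 161, 116 and 107 CPM in WT (log2 −0.43, SE 0.19, edgeR adjusted p = 0.157). The groups overlapped, KO1 being above WT3 and WT4. It passed with the block (edgeR adjusted p = 0.0362) and without KO1 (0.0455), over a range of 0.0362 to 0.541.

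Among the 6 tested sensors and transcription factors, Atf4 fell and none rose by edgeR (unadjusted p under 0.05 at 1 higher and 3 lower, and 1 higher by DESeq2 and 0 by limma-voom). Among all tested genes 8.73% were higher and 5.25% lower, so 6 genes are too few to set this class apart. Atf4, the factor translated when Eif2ak3 or another kinase phosphorylates eIF2α, was at 161, 164 and 149 CPM in KO against 219, 259, 233 and 221 CPM in WT. The groups were far apart and tight within, and Atf4 fell by 0.56 on the log2 scale (SE 0.12, edgeR adjusted p = 0.00594). With library size alone as the scaling its edgeR adjusted p was 0.102, the only one of the 17 alternatives past the 0.05 threshold, over a range of 6.6e-06 to 0.102. Since Atf4 is set largely by translation, its RNA does not measure the protein.

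Atf6, the membrane-bound factor released by cleavage, was at 52.6, 51.3 and 57.7 CPM in KO against 64.3, 64.9, 77.5 and 64.2 CPM in WT (log2 −0.33, SE 0.12, edgeR adjusted p = 0.0768). Ern1, the kinase and nuclease that splices Xbp1 RNA, was at 12.5, 21.0 and 12.6 CPM in KO against 9.44, 10.9, 6.15 and 3.30 CPM in WT (log2 1.03, SE 0.34, edgeR adjusted p = 0.0670). Neither sensor overlapped between groups, Atf6 with KO below and Ern1 with KO above, and neither passed the test. Ern1 passed with DESeq2 (adjusted p = 0.0231), with the replicate block in edgeR (0.0351) and without WT2 (0.0316), over a range of 0.0231 to 0.246. Eif2ak3, the kinase sensor, was at 34.2, 38.3 and 28.6 CPM in KO against 38.7, 46.8, 35.3 and 32.2 CPM in WT (log2 −0.19, SE 0.15, edgeR adjusted p = 0.474). Xbp1, whose spliced form drives folding and degradation genes, was at 269, 313 and 360 CPM in KO against 304, 317, 433 and 394 CPM in WT (log2 −0.20, SE 0.15, edgeR adjusted p = 0.428). Both overlapped between the groups. Gene counts do not separate spliced from unspliced Xbp1 RNA, so its activation was not measured.

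Ddit3 (CHOP), the factor that turns prolonged stress towards cell death, was at 11.7, 8.98 and 15.9 CPM in KO against 17.3, 15.1, 18.9 and 18.2 CPM in WT (log2 −0.51, SE 0.20, edgeR adjusted p = 0.110). KO1 and KO2 lay below every WT library and KO3 lay above WT2. Without KO3 the edgeR adjusted p of Ddit3 was 0.0255, over a range of 0.0255 to 0.345. Atf3, a stress-induced repressor, was at 4.23, 1.73 and 0.398 CPM in KO against 0.383, 0.331, 0.122 and 0.287 CPM in WT. That came to 106 counts in all KO libraries and 36 in all WT libraries, most of the KO counts coming from KO1 and KO2, with KO3 close to WT1. Atf3 did not reach the filter on low counts, and with no filter its log2 fold change was 2.82 (SE 0.80, edgeR adjusted p = 0.0212). It was tested under 2 other alternatives and was higher in both, with the 10 most abundant genes left out (edgeR adjusted p = 0.0294) and without KO3 (0.0119).

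All 4 outputs of the Atf4 arm had a negative log2 fold change in the TMM-scaled fit (median −0.37), while with library size alone Asns turned to 0.08. None passed the edgeR test, none had an unadjusted p under 0.05, and DESeq2 and limma-voom also called 0. Among all tested genes 14.0% passed the edgeR test in either direction. Chac1, a glutathione-degrading enzyme, was at 3.79, 2.68 and 6.60 CPM in KO against 5.99, 5.85, 7.06 and 6.98 CPM in WT (log2 −0.56, SE 0.31, edgeR adjusted p = 0.263). Trib3, a pseudokinase that damps the response, was at 0.371, 0.734 and 1.99 CPM in KO against 1.64, 1.83, 1.89 and 2.30 CPM in WT (log2 −0.86, SE 0.59, edgeR adjusted p = 0.376). In both genes KO1 and KO2 lay below every WT library while KO3 lay among them. Without KO3 Chac1 had an edgeR adjusted p of 0.0493, over a range of 0.0493 to 0.551. Ppp1r15a (GADD34), which restores translation, and Asns, asparagine synthetase, had log2 fold changes of −0.18 and −0.09 (edgeR adjusted p = 0.432 and 0.731).

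As a share of all counts, the 51 genes took 1.83, 2.04 and 1.90% in KO1 to KO3 and 1.07, 1.39, 1.37 and 1.15% in WT1 to WT4, a mean of 1.92 ± 0.108% in KO and 1.25 ± 0.159% in WT (SD, n = 3 and 4). The groups did not overlap. Ins1 and Ins2 took 15.1 ± 4.39% of counts in KO and 37.4 ± 4.23% in WT, and every other gene's share moves with that. With both insulin genes left out of the total, the share was 2.06, 2.38 and 2.37% in KO and 1.65, 2.06, 2.27 and 1.99% in WT. The groups then overlapped, WT3 being above KO1, and the difference of means was 0.277 percentage points, against 0.678 with insulin counted.

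**Figure D4:**
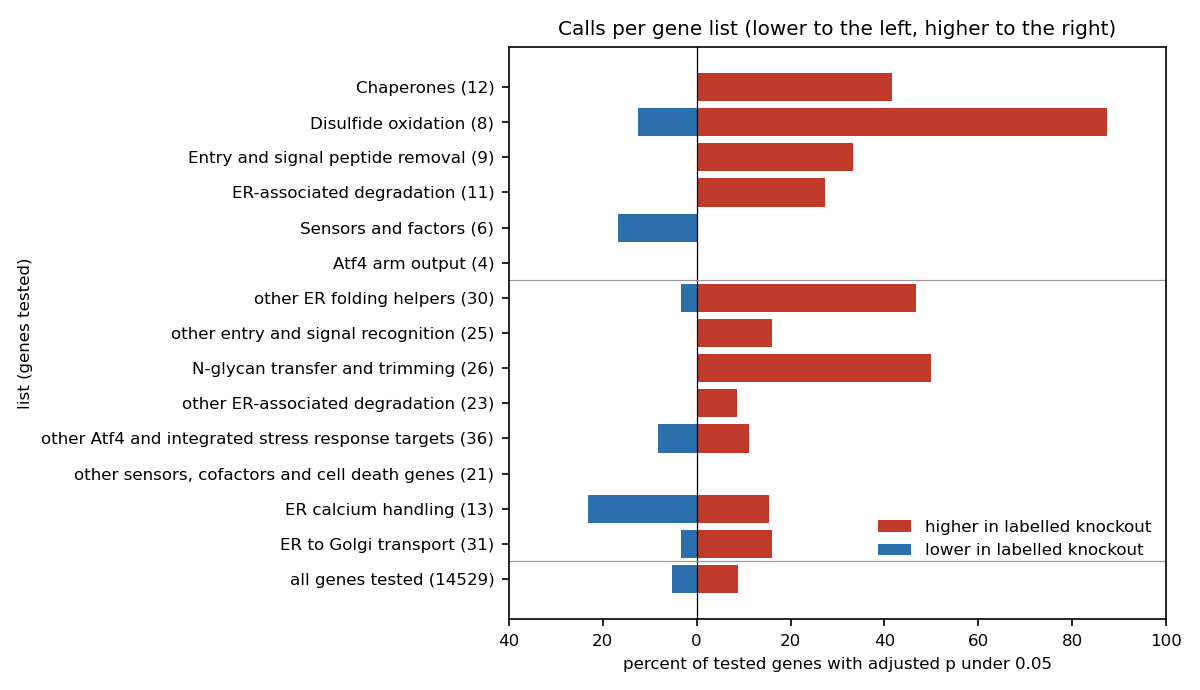
Percent of tested genes higher (red, to the right) and lower (blue, to the left) in KO than in WT at an edgeR adjusted p under 0.05, for each role, for 8 further lists of the secretory pathway and for all genes tested. Disulfide oxidation reaches 87.5% higher, N-glycan transfer and trimming 50% and other folding helpers 46.7%, against 8.73% of all genes.

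Genes that work beside these in the secretory pathway were read from 8 further lists, with 205 of 211 genes tested. In all, 44 were higher (21.5%) and 8 lower (3.90%), with a median log2 fold change of 0.14, against 8.73% and 5.25% of all tested genes. Of 30 other folding helpers 14 rose and 1 fell. Sil1, the nucleotide exchange factor of Hspa5, was at 169 ± 37.9 CPM in KO and 61.4 ± 6.59 CPM in WT (log2 1.46, SE 0.15, edgeR adjusted p = 2.1e-05). Cnpy2 (log2 1.07), the prolyl isomerase Fkbp9 (0.79) and the sulfhydryl oxidase Qsox1 (0.72) were the next by p. Of 26 genes for N-glycan transfer and trimming 13 rose and none fell (unadjusted p under 0.05 at 18 higher and 0 lower). First by p were Rpn2 (1.40), Ddost (1.16) and Tusc3 (0.88), all subunits of the oligosaccharyltransferase, and Prkcsh (1.04), the beta subunit of glucosidase II. Rpn2 was at 1328, 1239 and 1215 CPM in KO against 391, 484, 540 and 501 CPM in WT (edgeR adjusted p = 8.7e-06). Every KO library lay far above every WT library. Without KO2, or with the acinar covariate, 7 genes of the N-glycan list were higher.

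The signal peptidase catalytic subunits Sec11c (log2 1.36) and Sec11a (0.64), with Emc7 (0.68) and Tmem208 (0.64), were the 4 called among 25 other genes for entry and signal recognition. All 4 were higher (16%, against 8.73% of all tested genes). Sec11a missed the threshold without KO3 (edgeR adjusted p = 0.0630; 0.00096 to 0.0630 over the alternatives). With the replicate block, or with library size alone, 8 of the 25 were higher, against 9.53% and 12.7% of all tested genes. Among 23 other degradation genes, 2 rose (8.70%, near the 8.73% of all tested genes), Erlec1 (1.48), a lectin of the same kind as Os9, and Jkamp (0.58). Among 31 genes of transport between endoplasmic reticulum and Golgi, 5 rose (16.1%) and 1 fell (3.23%), against 8.73% and 5.25% of all tested genes. First by p were the cargo receptors Tmed3 (1.66) and Tmed10 (0.76), the retrieval receptor Kdelr3 (1.30) and the coat subunit Sec13 (0.43). Without KO2 or WT2 3 genes of this list rose, and Sec13 missed the threshold without KO1, KO2, WT2 or WT3 (edgeR adjusted p up to 0.0944). In the calcium list 2 of 13 genes were higher (15.4%) and 3 lower (23.1%), against 8.73% and 5.25% of all tested genes. Itpr3 (−1.22), a calcium release channel, and the calcium pumps Atp2a2 (−0.59) and Atp2a3 (−0.46) fell, while Sdf4 (1.0) rose. Without KO1, or without WT3, 1 of the 3 falls was called. Atp2a2 reached an adjusted p of 0.113 and Atp2a3 of 0.213 across the alternatives.

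Of 36 other Atf4 and integrated stress response targets, 4 were higher (11.1%) and 3 lower (8.33%), shares near the 8.73% and 5.25% of all tested genes (median log2 −0.23). Nupr1, a stress-induced chromatin protein, was at 11.9, 25.3 and 10.4 CPM in KO against 3.41, 4.98, 6.82 and 7.13 CPM in WT (log2 1.52, SE 0.33, edgeR adjusted p = 0.00660). Phgdh, the first enzyme of serine synthesis, was at 21.4, 19.7 and 10.9 CPM in KO against 7.83, 9.27, 6.39 and 8.47 CPM in WT (log2 1.1, SE 0.24, edgeR adjusted p = 0.00626). Stc2, a stanniocalcin, was at 1.26, 4.27 and 0.576 CPM in KO against 0.139, 0.0583, 0 and 0.191 CPM in WT. Without KO2 its edgeR adjusted p was 0.0834 (3.4e-05 to 0.0834 over the alternatives), and 2 genes of the list were higher. Slc3a2, a heavy chain of amino acid transporters, was at 118, 129 and 159 CPM in KO against 196, 191, 212 and 216 CPM in WT, and it fell by 0.59 on the log2 scale (SE 0.13, edgeR adjusted p = 0.00800). None of these 4 genes overlapped between the groups. Without KO3 5 genes of this list were lower. With the acinar covariate 1 gene of the list was higher, and both Nupr1 and Stc2 missed the threshold. The edgeR adjusted p of Nupr1 was then 0.0555, over a range of 0.000155 to 0.0555. Of 21 other sensors, cofactors and cell death genes none passed the edgeR test in either direction, against 14.0% of all tested genes. Here the unadjusted p was under 0.05 at 1 higher and 1 lower, DESeq2 called 0 higher and 1 lower, and limma-voom called 0.

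The remaining calls in the smaller classes, named after their values were seen, were Tmx3 (log2 −0.54) among folding helpers, Slc7a5 (−0.67), Gars (−0.34) and Psat1 (0.83) among Atf4 targets, Rcn2 (0.42) in the calcium list, and Sec16b (0.51) and Golga2 (−0.42) in transport to the Golgi. Slc7a5, the light chain that pairs with Slc3a2, kept its call whichever library was left out. Its edgeR adjusted p ran up to 0.0600 over the alternatives, with library size alone. Each of the others lost its call without WT2 and without some other libraries. A change of scaling or filter alone also removed the calls of Tmx3, Gars, Rcn2 and Golga2. With the replicate block the edgeR adjusted p was 0.0703 for Tmx3, 0.0634 for Gars and 0.0883 for Sec16b. Over the alternatives the edgeR adjusted p ran up to 0.243 for Tmx3, 0.505 for Gars, 0.166 for Psat1, 0.212 for Rcn2, 0.177 for Sec16b and 0.353 for Golga2.

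Glis3-eGFP peaks lay at the starts of nearly all of these genes, whichever way they moved. Of the 51 genes, 49 (96.1%) had a peak midpoint within 10 kb of their 5′ end, against 80.5% of all tested genes. Within 1 kb it was the same 49, against 71.2%, and within 50 and 100 kb it was 50, against 91.1% and 95.0%. Among genes with a mean of at least 50 CPM, a threshold chosen after the values were seen, the share within 10 kb was 97.6% (40 of 41) for these genes and 93.0% for all. Within 1 kb these shares were 97.6% and 85.9%. A peak lay within 1 kb of 16 of the 18 genes that rose, of both that fell and of all 30 that did not pass the test. Among all tested genes a peak lay that near to 61.9% of those called higher and 81.4% of those called lower. The median distance was 161 bp (11 to 805 bp), and Atf6 alone had 2 peaks within 1 kb. The genes without a peak within 10 kb were Ssr2, whose nearest lay 25.7 kb away, and Prdx4, whose nearest lay 1713 kb away. Both were higher in KO. Hsp90b1 had its peak at chr10:86705379-86705578 (mm10), over the printed promoter, and that of Hspa5 at chr2:34771603-34771802 ended just before it. Peaks overlapped the 300-base promoter window of 25 genes. The list gives positions with no score and comes from 1 library, so strength of binding was not compared.

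**Figure D5:**
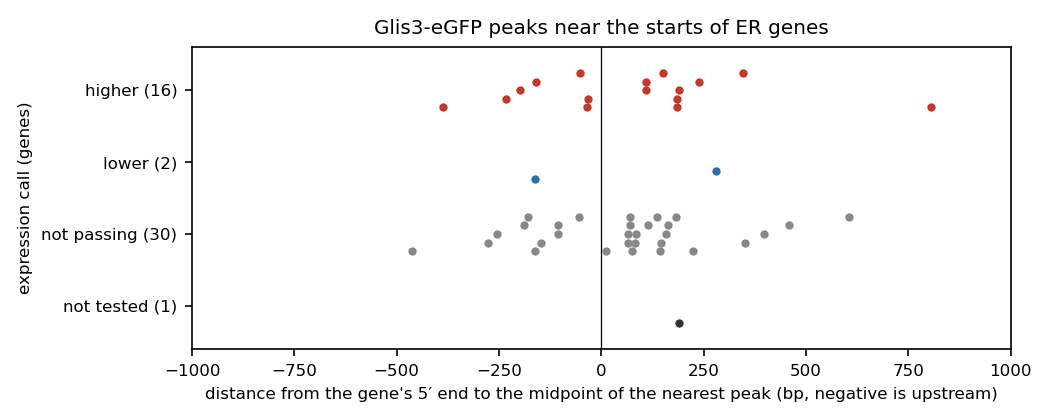
Distance in base pairs from the 5′ end of each of 49 genes to the midpoint of the nearest Glis3-eGFP peak, negative upstream, in rows by whether the gene was higher (16), lower (2), not passing (30) or not tested (1, Atf3) in KO against WT. Points of every row crowd within 805 bp of the start, and Ssr2 and Prdx4, which have no peak within 1 kb, are not drawn.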

How the data were processed

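The deposited RNA table held whole-number counts for each gene, which the authors had not normalised. STAR 2.5, featureCounts 1.5.0-p1, DESeq2 and build mm10 are named per the submitters' processing notes, as are HOMER 4.9.1, Bowtie 1.2, cutadapt 1.2.1, bedtools 2.24.0 and Picard 1.110. Roles, settings, strand option and annotation are not given in the sources used here. Binding peaks, 21254 in all, were intervals of 200 bp, deposited by the authors with no score. The table had 0 further columns of per-sample values, 988 rows repeated a symbol, and the input library was not analysed here.

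Genes were filtered with filterByExpr by group, scaled by TMM and compared, KO over WT, with the edgeR 4.0.16 quasi-likelihood test (R 4.3.3), Benjamini-Hochberg adjusted over all 14529 tested genes at 0.05. The fit was tested on simulated counts first. Each SE is the log2 fold change over the root of its F statistic. Groups and replicate numbers came from the labels. The design text speaks of separate mice. Depth of 12099365 to 48054551 counts per library limits precision mainly at low genes such as Trib3 and Atf3. No libraries of a group were copies (chi-square per degree of freedom 23.4 to 95.4 between pairs).

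The labels give KO and WT the same replicate numbers without saying that they mark a shared day. The deviations of same-numbered libraries had a correlation across genes of 0.17, 0.12 and 0.12 for numbers 1 to 3. KO3 and WT4, which share no number, had 0.16, so these weak values do not show that a number marks anything shared. The block on the replicate number is given, as an alternative, beside results whose call it changes.

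The genes and lists were chosen with earlier results of these data known, as were the tests. Named were all genes of the set, with values in every library for those that passed, for Hspa5, Pdia6, Ero1lb and for the sensors and factors, up to 4 called genes with the smallest p in each further list, and Glis3, Ins1 and Ins2. Creld2, Derl3, Herpud1, Chac1 and Trib3 were given per library after their values were seen. The share of counts taken by the genes was described without a test. Of the 51 genes, 8 have a span that overlaps another gene, mostly by under 300 bases.

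Alternatives were RLE factors, library size alone, leaving out the 10 most abundant genes, no filter, a minimum of 1 CPM in 3 libraries, limma-voom (limma 3.58.1), DESeq2 1.42.0, the replicate block, the acinar covariate, an adjusted p under 0.01, leaving out each library, windows of 1, 50 and 100 kb for peaks, and insulin left out of the share. Distances run from the 5′ end of the gene, by its coordinates in the count table, to the midpoint of a peak. Promoters came from RefSeq (GRCm38.p6), matched by the Entrez gene ID of each count table row.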

Additional observations from a re-analysis of the deposited data

Results flagged for a closer look

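Among 54 WT groups of 4 libraries examined, 3 held a library whose gap to its nearest neighbour took more of the group's range than Dixon's 95% limit allows for 4 values, and chance flags about 1 group in 20. Pdia3 was at 783 CPM in WT1, below WT2 to WT4, which lay between 886 and 894 CPM. Derl1 was at 106.5 CPM in WT4, below the other 3, which lay between 113 and 114 CPM. Atf6 was at 77.5 CPM in WT3, above the other 3, which lay between 64.2 and 64.9 CPM. Without WT1 the call of Pdia3 held, and without WT3 that of Atf6 was still missed.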

How the results depend on the processing

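Over 850 comparisons (50 genes under 17 alternatives), 757 kept the sign and the side of the threshold, 45 lost a call, 23 gained one and 25 changed sign, the sign changes all outside the called genes. Of the 20 called genes, 10 kept their call throughout: Hsp90b1, Pdia3, Pdia5, Ero1l, Prdx4, Ssr4, Spcs1, Edem1, Edem2 and Os9. The 18 genes higher in KO became 11 with the acinar covariate, 10 at an adjusted p under 0.01 and 11 to 19 with 1 library left out; the 2 lower became 1 with library size alone, the acinar covariate or the 0.01 threshold and 1 to 4 with 1 library left out. With the replicate block 26 were higher and 3 lower, and among the genes named it changed no call other than those given in the report. Of all tested genes 6.56% were higher with the acinar covariate, 5.03% at 0.01, 12.7% with library size alone and 9.53% with the block. The median log2 fold change of 0.36 became 0.56 with library size alone, and 0.20 to 0.48 with 1 library left out. In the 8 further lists the 44 higher became 57 with library size alone, 49 with the block and with DESeq2, 29 with the acinar covariate, 27 at 0.01 and 31 to 40 with 1 library left out; the 8 lower became 9 with the block, 12 with DESeq2, 3 with library size alone, 5 with the acinar covariate, 2 at 0.01 and 3 to 9 with 1 library left out. The difference in share of counts, 0.678 points, became 0.277 without insulin in the total and 0.619 to 0.726 with 1 library left out. Signs changed with library size alone for Dnajb9 (0.102), Derl2 (0.0302) and Asns (0.0812), with no filter for Edem3 (−0.0022), with the replicate block for Derl1 (−0.0064) and Edem3 (−0.0318), and with the acinar covariate for Sec61a1 (−0.0099), Sel1l (−0.0116) and Edem3 (−0.0791). With 1 library left out the log2 fold change crossed 0 for Canx (−0.0905 to 0.106), Dnajb9 (−0.168 to 0.0965), Sec61a1 (−0.023 to 0.118), Spcs2 (−0.0352 to 0.224), Sel1l (−0.0412 to 0.150), Derl1 (−0.0279 to 0.0503), Derl2 (−0.282 to 0.0034), Edem3 (−0.184 to 0.109) and Vcp (−0.0323 to 0.114). The cause was not tested. With 3 and 4 libraries, and 1 acinar-rich KO library, calls near the threshold are the least firm, and genes under 2 CPM such as Trib3 rest on few counts.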
